A study of Adonis amurensis with 6 samples.

Results

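The genes for the synthesis and perception of the plant hormone ethylene were followed through the flower of Adonis amurensis, a perennial of the family Ranunculaceae that blooms in early spring. Members were taken from an assembled transcriptome by name. A unigene (an assembled transcript) was a member when its Swiss-Prot match was a 1-aminocyclopropane-1-carboxylate (ACC) synthase, oxidase or oxidase homolog, an ethylene receptor, the protein kinase CTR1, an ethylene-insensitive protein (EIN2, EIN3 or EIN3-like) or an EIN3-binding F-box protein. Ethylene-responsive transcription factors were not included. Of 190353 unigenes, 60156 had a Swiss-Prot name and 148 were members.

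Each of 6 stages gave 1 library. The stages labelled as flower bud were FBD (flower bud differentiation), YA (young alabastrum) and VCA (visible color alabastrum), and those labelled as flower were EFS (early flowering), FBS (full bloom) and SFS (senescing flower). All plants grew in 1 open field with no treatment named, and the labels give neither a cultivar nor how many plants went into a library. The floral organs were not separated, so fewer cells of a type and less RNA per cell cannot be told apart. With no replicate there is no SD and no test, and a 2-fold difference between libraries is a description of those libraries.

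Ethylene is made from S-adenosylmethionine. ACC synthase forms ACC, and ACC oxidase turns ACC into ethylene. In Arabidopsis, ethylene binds receptors in the endoplasmic reticulum that otherwise keep the kinase CTR1 active. Once CTR1 is off, EIN2 lets the transcription factors EIN3 and EIN3-like accumulate, and these are removed through the F-box proteins EBF1 and EBF2. In many species ethylene promotes the senescence and shedding of petals, while in others petals age with little response to it.

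Levels are given as FPKM (read fragments scaled to transcript length and to the mapped reads of the library), which is per length and can be compared between unigenes. The FPKM of a library summed to between 724656 and 755345, and relative depth, estimated from low values, was between 0.804 in FBD and 1.15 in EFS times that of YA. The summed FPKM of 27 actin-named unigenes was 1245 in YA and 639 in SFS. The FBD library shared few unigenes with the other stages, so it is described apart.

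The names were not equally well supported. Of the 148 members, 69 carried the KEGG orthology of the same step, 22 had a Swiss-Prot E-value above 1e-20, and 83 were contigs of 27 assembly clusters. All 14 ACC oxidases, all 4 ACC synthases, all 17 receptors, all 4 EIN2 and all 6 EIN3 names had the matching orthology. Of the 5 EIN3-binding F-box names, 4 did, all but CL23316.Contig1. Of the 46 unigenes named CTR1, 20 did, and the other 26 belonged to other kinases or had no such match. None of the 52 ACC oxidase homologs had the ACC oxidase orthology, and 40 had that of DIBOA-glucoside dioxygenase, an enzyme of benzoxazinoid metabolism. ACC oxidase homologs and CTR1 names are therefore described apart from the rest of the pathway. Reads shared by contigs of 1 cluster were divided between them by estimation, so single contigs of a cluster are uncertain and sums are given beside them.

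Summed together, the members took a larger part of the library after the flower opened, though not in every class. Their summed FPKM was 639.7 (YA) and 519 (VCA) in bud and 1039 (EFS), 2131 (FBS) and 2009 (SFS) after opening. The 3 open stages were all above both bud stages, and most of the difference lay in ACC oxidase and the ACC oxidase homologs. A single ACC oxidase contig, CL25351.Contig3, made 21.0% of the members' sum in YA and 46.3% in SFS. From YA to SFS the sum of ethylene receptor or receptor 1 went from 65.4 to 50.5, by less than 2-fold and in a direction that depended on scaling. The sums of ACC synthase, CTR1 names, EIN2 and EIN3-binding F-box differed little, and that of EIN3 and EIN3-like went from 60.5 to 114. The number of members with an FPKM of at least 1 differed little, between 48 in VCA and 55 in SFS.

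**Figure D1:**
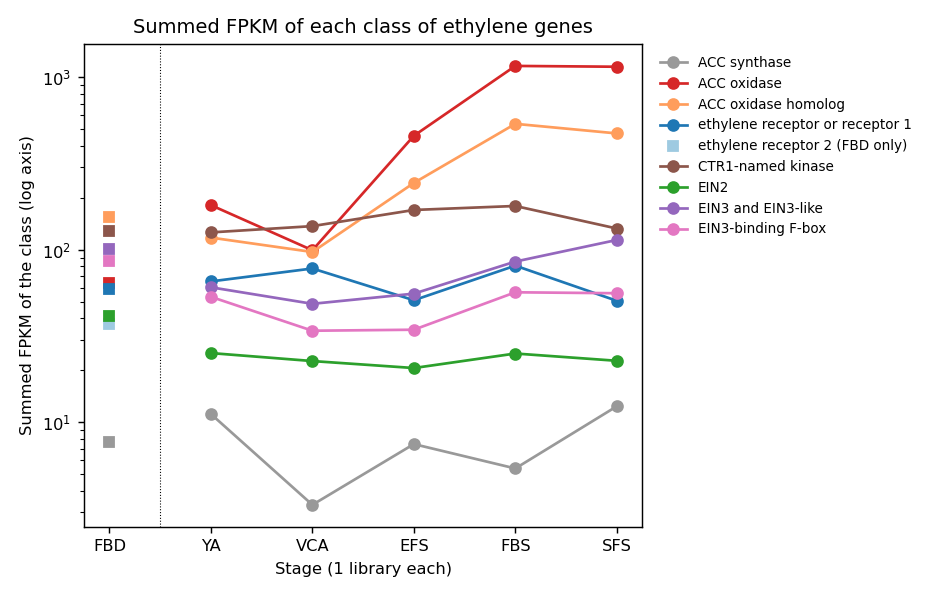
Summed FPKM (log axis) of each class of ethylene genes in the 6 stages, with 1 library per stage and FBD drawn apart as squares. ACC oxidase lay between 99.2 and 1162 over the 5 later stages, while the EIN2 sum stayed between 20.6 and 25.1.

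From YA to SFS, the comparison of a young bud with a senescing flower, members taken by name were more often higher than all named unigenes were, and with members taken by KEGG orthology the share was near that of the named unigenes. Of 148 members, 66 reached an FPKM of 1 in YA, in SFS or in both. Of these 66, 32 (48.5%) were at least 2-fold higher in SFS, on the log2(FPKM + 0.1) scale, against 25.2% of 27770 Swiss-Prot-named unigenes and 29.1% of 69437 unigenes in all. At least 2-fold lower were 17 members (25.8%), against 41.7% of the named unigenes and 46.8% of all. The median log2 ratio of SFS to YA was 0.98 over the members and -0.57 over the named unigenes. Without the ACC oxidase homologs, 17 of 46 members were higher and 13 lower, with a median of 0.02. With members by KEGG orthology, 16 of 58 (27.6%) were higher and 21 (36.2%) lower, with a median of -0.21. Of the members called in either direction, 3 were listed at 0 in YA or SFS.

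Scaling changed this split. Median-ratio scaling, in which the unigenes above 0 in all 5 later stages set the size of a library, raised SFS relative to YA by 0.46 on the log2 scale before the pseudocount. Of the 63 members that then passed the filter, 35 (55.6%) were higher and 13 (20.6%) lower, against 31.7% and 32.7% of the named unigenes scaled alike. Division by the summed actin FPKM raised SFS by 0.96. It gave 39 of 63 members (61.9%) higher and 8 (12.7%) lower, against 40.7% and 25.3% of the named unigenes. The share of higher among the changed members went from 65.3% to 83.0%. This shift was not particular to the members. Of the named unigenes, the share called higher went from 25.2% to 40.7% and the share called lower from 41.7% to 25.3%.

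**Figure D2:**
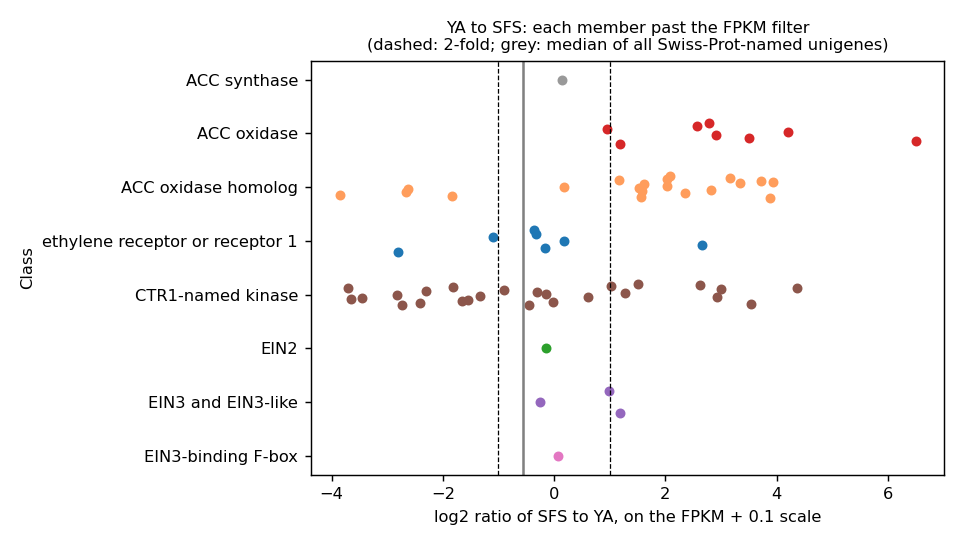
log2 ratio of SFS to YA for each of the 66 members past the FPKM filter, by class, with the 2-fold limits dashed and the median of all Swiss-Prot-named unigenes (-0.57) in grey. The 8 ACC oxidases all lay to the right of 0, while CTR1-named kinases were spread to both sides.

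ACC synthase, the enzyme whose product commits the pathway to ethylene, was expressed at a low level from 1 unigene. CL15798.Contig1 had an FPKM of 11.1 in YA, 3.31 in VCA, 7.45 in EFS and 5.38 in FBS, with 12.3 in SFS. It was lowest in the colored bud and about equal at both ends of the series. The colored bud was 3.36-fold below the young bud, and SFS was 2.29-fold above FBS. The other 3 ACC synthase names were listed at 0 in all 5 later stages.

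ACC oxidase, which releases ethylene, had the highest levels of the pathway proper. The summed FPKM of its 14 unigenes was 181 in YA and 99.2 in VCA, then 457, 1162 and 1150 in EFS, FBS and SFS. The bud-to-bloom increase came between VCA and FBS, and full bloom and senescence were nearly equal, although scaling by actin put SFS 1.49-fold above FBS. The sum in SFS was 6.35-fold that in YA. Among the 8 unigenes past the filter, 7 (87.5%) were at least 2-fold higher in SFS than in YA and 0 lower. Of all named unigenes, 25.2% were higher and 41.7% lower. The median log2 ratio of the 8 was 2.85. Of the 8, 3 were contigs of cluster CL25351 and 2 of CL30612. CL25351.Contig1 and CL25351.Contig2 had Swiss-Prot E-values of only 5.8e-10 and 5.1e-09.

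A single contig carried most of the ACC oxidase sum. CL25351.Contig3 had an FPKM of 134 (YA) and 63.8 (VCA) in bud and 394 (EFS), 803 (FBS) and 929.7 (SFS) after opening. It went down 2.11-fold as the bud colored, then stood higher at each later stage than at the one before, and it was the 49th most abundant of all unigenes in SFS after being the 809th in YA. Its share of the ACC oxidase sum was 74.2% in YA and 80.9% in SFS. The sum over its cluster ran in parallel, from 136 in YA to 938 in SFS.

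The next most abundant ACC oxidase, Unigene4844 (named ACC oxidase 3), had an FPKM of 22.0 in YA, 16.9 in VCA, 12.8 in EFS and 123 in FBS, with 131 in SFS. Unlike CL25351.Contig3 it was lowest at early flowering and high only in the last 2 stages. Values of CL30612.Contig2, also named ACC oxidase 3, were 21.8 in YA and 15.7 in VCA, then 43.8, 77.5 and 42.3 in EFS, FBS and SFS. Its log2 ratio of SFS to YA was 0.96, just short of 2-fold.

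Some ACC oxidases were highest by far at a single stage. CL30612.Contig4 had an FPKM of 110 in FBS, against 0.88 in YA, 0.11 in VCA, 1.0 in EFS and 17.9 in SFS, and Contig2 and Contig4 of CL30612 share a cluster, whose sum was also highest in FBS at 188. Unigene48404 had 0.21 in YA, was listed at 0 in VCA and EFS, reached 36.1 in FBS and had 2.22 in SFS. These 2 unigenes were singled out after their values were seen. Unigene24220, the only unigene named ACC oxidase 5, had an FPKM of 0.10 (YA) and 0.50 (VCA) in bud and 1.09 (EFS), 0.19 (FBS) and 18.0 (SFS) after opening. It was thus low in every stage but the senescing flower.

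**Figure D3:**
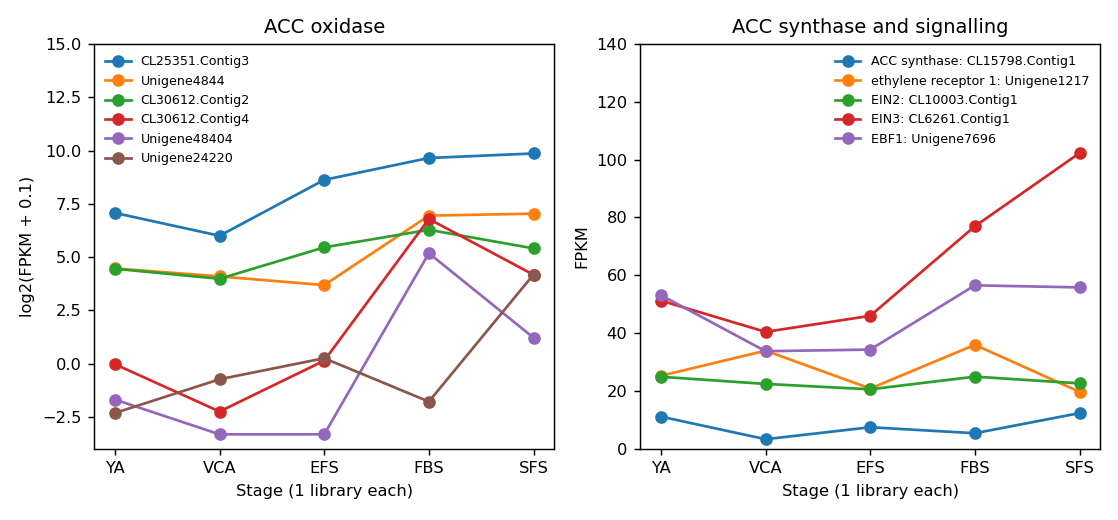
Left, log2(FPKM + 0.1) of 6 ACC oxidase unigenes in YA, VCA, EFS, FBS and SFS (1 library each); right, FPKM of the leading unigene of ACC synthase, ethylene receptor 1, EIN2, EIN3 and EBF1. CL25351.Contig3 was the highest ACC oxidase at each stage, and among the signalling unigenes EIN3 had its highest value, 102, in SFS.

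The ACC oxidase homologs, dioxygenases that share sequence with ACC oxidase and whose role in ethylene synthesis is not established, were also higher in open flowers. Their summed FPKM over 52 unigenes was 117 in YA, 96.9 in VCA, 244 in EFS and 536 in FBS, with 472 in SFS, a 4.02-fold difference between YA and SFS. Of 20 that passed the filter, 15 were at least 2-fold higher in SFS and 4 lower, with a median log2 ratio of 1.82. The shares of all named unigenes were 25.2% higher and 41.7% lower. Clusters CL16978, CL18799, CL1954 and CL29689 each had several contigs among the 20, and reads are divided between such contigs. CL1954.Contig1 and CL1954.Contig2 were called higher, while CL1954.Contig4 and CL1954.Contig5 were called lower. All 4 leading unigenes below were named ACC oxidase homolog 1.

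CL16978.Contig1 had an FPKM of 12.9 in YA and 7.74 in VCA, then 47.6, 151 and 55.0 in EFS, FBS and SFS. In CL16978.Contig2 the values were 8.83 (YA) and 14.2 (VCA) in bud and 20.9 (EFS), 86.3 (FBS) and 79.6 (SFS) after opening. Both peaked at full bloom, and their cluster summed to 28.4 in YA, 274 in FBS and 155 in SFS. CL18799.Contig3 was at 11.3 in YA, 17.2 in VCA, 61.7 in EFS and 66.2 in FBS, with 46.7 in SFS, so it was already near its highest level at early flowering. CL1954.Contig1 differed from these, with an FPKM of 3.64 in YA and 26.2 in VCA, then 15.9, 19.3 and 57.5 in EFS, FBS and SFS. It was highest in the senescing flower, at 15.8-fold its level in YA, but the sum of its cluster went only from 23.1 to 64.0, and CL1954.Contig4 went the other way, from 12.0 in YA to 1.86 in SFS.

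Ethylene receptors did not follow ACC oxidase. The 14 unigenes named ethylene receptor or ethylene receptor 1 summed to an FPKM of 65.4 (YA) and 77.7 (VCA) in bud and 50.9 (EFS), 80.7 (FBS) and 50.5 (SFS) after opening. The sum was highest in the colored bud and at full bloom, and no 2 of the 5 stages differed by 2-fold. The log2 ratio of SFS to YA was -0.37, and it turned positive after scaling by the median ratio (0.09) or by actin (0.59). Among 7 unigenes past the filter, 1 (14.3%) was at least 2-fold higher in SFS, 2 (28.6%) were lower and 4 differed by less. The shares of all named unigenes were 25.2% higher and 41.7% lower.

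Most of the receptor sum came from a pair of unigenes named ethylene receptor 1. Unigene1217 had an FPKM of 25.2 in YA, 33.9 in VCA, 20.8 in EFS and 36.0 in FBS, with 19.7 in SFS. Unigene62391 had 24.8 in YA and 32.3 in VCA, then 20.4, 31.2 and 19.7 in EFS, FBS and SFS. The pair was so close at every stage that they may be near-identical copies between which reads were divided, and they are uncertain as separate genes.

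The remaining receptor signal lay in cluster CL903, where single contigs alternated. CL903.Contig6 had an FPKM of 3.27 in YA, was listed at 0 in VCA, and had 0.37 in EFS, 7.78 in FBS and 3.73 in SFS, while CL903.Contig5 was highest in VCA at 5.37. Summed over its 8 contigs the cluster was steadier, with 15.4 (YA) and 11.5 (VCA) in bud and 9.60 (EFS), 13.5 (FBS) and 11.1 (SFS) after opening. The 3 unigenes named ethylene receptor 2 were at most 0.10 in any of the 5 later stages. A further receptor, EIN4, is named differently in Swiss-Prot and was not a member, and its 5 unigenes summed to 31.8 in YA, 21.6 in VCA, 20.1 in EFS and 32.6 in FBS, with 24.4 in SFS.

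The unigenes named CTR1, the kinase that holds the pathway off in air, fell into 2 sets by orthology. The 20 with the CTR1 orthology summed to an FPKM of 28.2 in YA and 30.9 in VCA, then 13.9, 26.4 and 19.1 in EFS, FBS and SFS. They were low and had a dip at early flowering, 2.22-fold below VCA. Of 11 that passed the filter, 1 was at least 2-fold higher in SFS than in YA and 5 (45.5%) were lower, near the 41.7% of all named unigenes, with a median log2 ratio of -0.46. The log2 ratio of their sum was -0.57, and scaling by actin turned it to 0.39. CL4894.Contig1, one of the 13 whose best Arabidopsis match in KOG was CTR1 itself, had 7.09 (YA) and 6.69 (VCA) in bud and 3.65 (EFS), 9.07 (FBS) and 5.71 (SFS) after opening. Unigene29856, another, had 5.34 in YA, 7.42 in VCA, 4.97 in EFS and 4.80 in FBS, with 4.82 in SFS. Both of these were chosen after their values were seen.

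The other 26 unigenes named CTR1 had the higher summed level. They summed to 97.6 in YA and 106 in VCA, then 156, 153 and 114 in EFS, FBS and SFS. Of 14 that passed the filter, 7 (50.0%) were higher in SFS, against 25.2% of all named unigenes. CL26487.Contig3, Contig4, Contig5 and Contig6 were among these 7, so a single cluster, between whose contigs reads are divided, entered this share several times. The 6 (42.9%) that were lower made a share near the 41.7% of all named unigenes. CL19783.Contig2, Contig3 and Contig4 were among these 6. Cluster CL26487, with the orthology of integrin-linked kinase, went up as the flower opened. Its Contig3 had an FPKM of 9.29 (YA) and 10.6 (VCA) in bud and 34.4 (EFS), 34.1 (FBS) and 26.6 (SFS) after opening, on a Swiss-Prot E-value of only 8.5e-19. CL26487.Contig6 had 3.53 in YA, 7.69 in VCA, 35.6 in EFS and 33.7 in FBS, with 22.3 in SFS. The cluster sum was 19.9 in YA and 26.6 in VCA, then 111, 105 and 65.6 in EFS, FBS and SFS, so its step lay between the colored bud and early flowering.

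CL26487.Contig4 was also highest at early flowering, with 6.84 (YA) and 5.42 (VCA) in bud and 23.0 (EFS), 21.4 (FBS) and 14.1 (SFS) after opening. Cluster CL19783, a different kinase orthology, went down over the same stages, with 52.2 in YA, 49.7 in VCA, 24.8 in EFS and 16.9 in FBS, with 11.1 in SFS. It was 4.71-fold lower in SFS than in YA. CL27440.Contig2 had 0.71 in YA and 11.3 in VCA, then 5.29, 14.6 and 16.7 in EFS, FBS and SFS, the largest log2 ratio of SFS to YA, 4.37, among CTR1 names with at least 5 in either library. The sum over all 46 CTR1 names, 126 in YA and 133 in SFS, hid these opposite courses.

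EIN2, the membrane protein on which ethylene signalling depends in Arabidopsis, was the steadiest class over the 5 later stages. CL10003.Contig1 had an FPKM of 24.9 (YA) and 22.4 (VCA) in bud and 20.6 (EFS), 25.0 (FBS) and 22.6 (SFS) after opening. Its highest and lowest stages differed by 1.21-fold. The log2 ratio of SFS to YA of the class sum was -0.15, and it was 0.31 after scaling by the median ratio and 0.81 after scaling by actin.

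EIN3, the transcription factor that starts the ethylene response, was highest in the last 2 stages. CL6261.Contig1 had an FPKM of 51.3 in YA, 40.4 in VCA, 46.0 in EFS and 77.0 in FBS, with 102 in SFS. The bud stages and early flowering lay close together, and SFS was just under 2-fold above YA, so it was not called. Scaling by the median ratio or by actin put the class sum past 2-fold, at a log2 ratio of 1.37 or 1.87 in place of 0.91. With members taken by KEGG orthology, 24 unigenes in place of 6, the log2 ratio was lower, at 0.42. EIN3-like 3, whose best known role in Arabidopsis is in the response to sulfur shortage, was low. CL16108.Contig1 had 6.68 in YA and 5.67 in VCA, then 5.26, 7.35 and 5.62 in EFS, FBS and SFS. CL16108.Contig2 had 2.49 (YA) and 2.26 (VCA) in bud and 4.14 (EFS), 0.84 (FBS) and 5.81 (SFS) after opening, a log2 ratio of SFS to YA of 1.19. The sum of the 2 contigs, from 7.93 in VCA to 11.4 in SFS, moved less than CL16108.Contig2 alone.

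EBF1, the F-box protein that targets EIN3 for degradation, was as abundant as EIN3 in YA. Unigene7696 had an FPKM of 53.1 in YA, 33.8 in VCA, 34.3 in EFS and 56.5 in FBS, with 55.8 in SFS. It was lower in the colored bud and at early flowering and back at its first level in the last 2 stages, with a 1.67-fold range. It stood below EIN3 at every stage after YA.

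**Figure D4:**
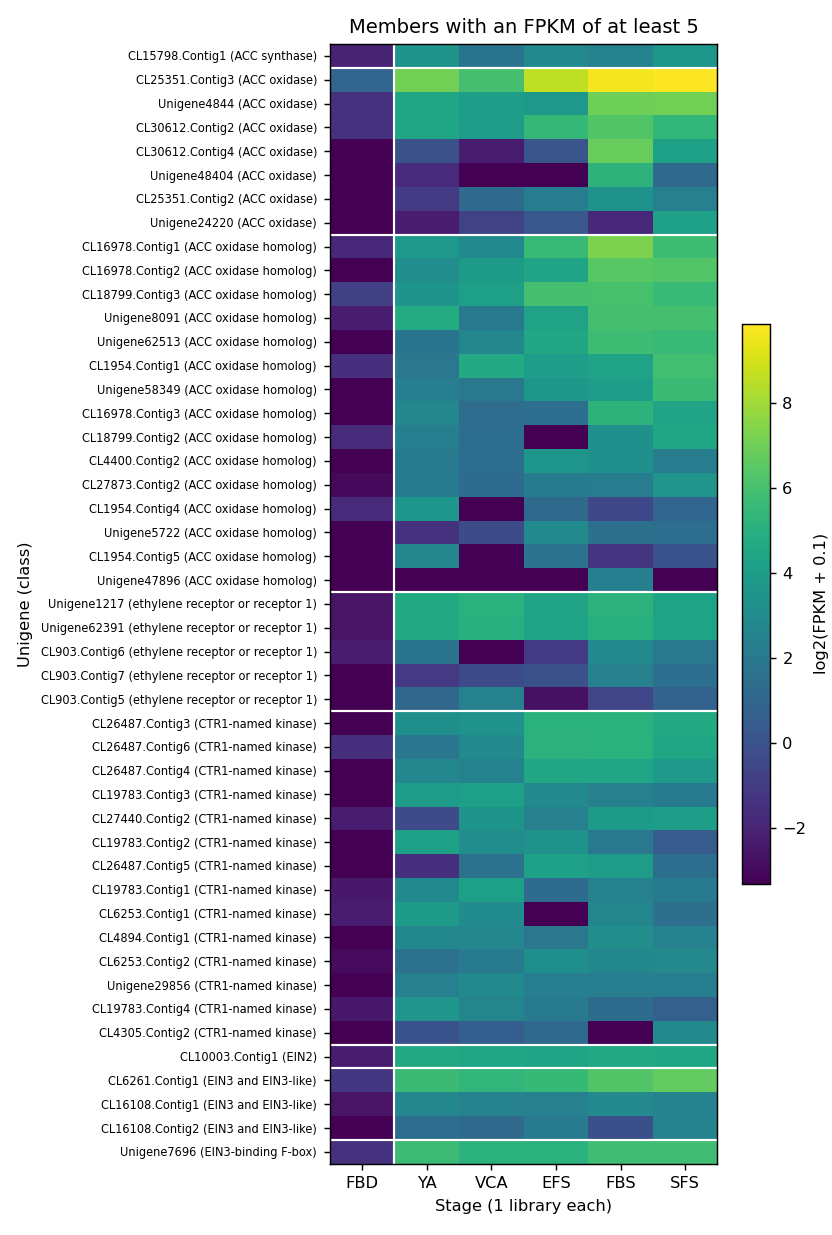
log2(FPKM + 0.1) of the 47 members that reached an FPKM of 5 in one of YA, VCA, EFS, FBS and SFS (rows, by class) in the 6 stages (columns, 1 library each). ACC oxidases and their homologs were brightest in FBS and SFS, and the FBD column was dark for nearly every row, with CL25351.Contig3 highest there at 1.85.

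Between consecutive stages the members moved at different times. From YA to VCA, 14 of 60 members were at least 2-fold higher, 23.3% against 22.0% of the named unigenes, and 15 lower, 25.0% against 22.2%. Both shares were near the background. Of the members called in either direction, 7 were listed at 0 in YA or VCA. At the later steps such members numbered 8 (VCA to EFS), 11 (EFS to FBS) and 8 (FBS to SFS).

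From VCA to EFS, 24 of 58 members (41.4%) were at least 2-fold higher, against 21.8% of the named unigenes, and 12 (20.7%) lower, against 31.2%. Of these 24, 4 were ACC oxidases, 12 were ACC oxidase homologs and 6 were CTR1 names. The median log2 ratio was 0.57 over the members and -0.30 over the named unigenes. It turned to -0.11 without the homologs, with 12 of 39 members higher and 11 lower, and to -0.14 with members by KEGG orthology, with 13 of 46 higher and 12 lower.

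From EFS to FBS, 25 of 63 members (39.7%) were at least 2-fold higher, against 24.7%, and 11 (17.5%) lower, against 28.0%. The 25 held 6 of the 8 ACC oxidases that passed the filter, 8 homologs and 9 CTR1 names. With actin scaling 34 of 62 members (54.8%) were higher than in EFS and 7 (11.3%) lower, against 36.6% and 19.4% of the named unigenes scaled alike.

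From FBS to SFS, 16 of 64 members (25.0%) were at least 2-fold higher, against 23.5%, and 17 (26.6%) lower, against 27.7%, both near the background. After scaling by actin 21 of 68 (30.9%) were higher and 9 (13.2%) lower, both below the 36.3% and 19.0% of the named unigenes scaled alike. Of the ACC oxidases, 2 were higher, 3 lower and 3 differed by less.

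A further pair of counts, added after the data were seen, describe the course without a fold limit. All 3 open stages lay above both bud stages in 18 of 75 members (24.0%), against 10.1% of the named unigenes, among members that reached an FPKM of 1 in these 5. All 3 lay below in 11 members (14.7%), against 24.3%. The 18 were 4 of 8 ACC oxidases, 8 of 24 homologs, 5 of 29 CTR1 names and 1 of 8 receptors. No EIN2, EIN3 or EBF unigene was among them. Of the 47 members that reached an FPKM of 5, 5 were highest in YA and 5 in VCA, against 7 for EFS, 18 for FBS and 12 for SFS. Among the named unigenes YA held the highest value of 25.5%, VCA of 25.9%, EFS of 13.1%, FBS of 17.2% and SFS of 18.3%.

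In FBD another set of unigenes carried the same names. Of the 148 members, 60 lay on the FBD side, meaning an FPKM in FBD at least 20-fold the mean of the other 5 stages, 57 on the side of the other stages, 1 between and 30 below 1 on both. Of the members on the FBD side none was above 0.19 in any later stage, and 36 of 60 were listed at 0 in all 5. Among 47842 Swiss-Prot-named unigenes placed the same way, 46.7% lay on the FBD side and 52.2% on the other, against 50.8% and 48.3% of 118 members, so the split was close to that of all named unigenes. Only 1 member, CL25351.Contig3, had an FPKM of at least 1 both in FBD and later. Why the libraries differ was not tested.

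**Figure D5:**
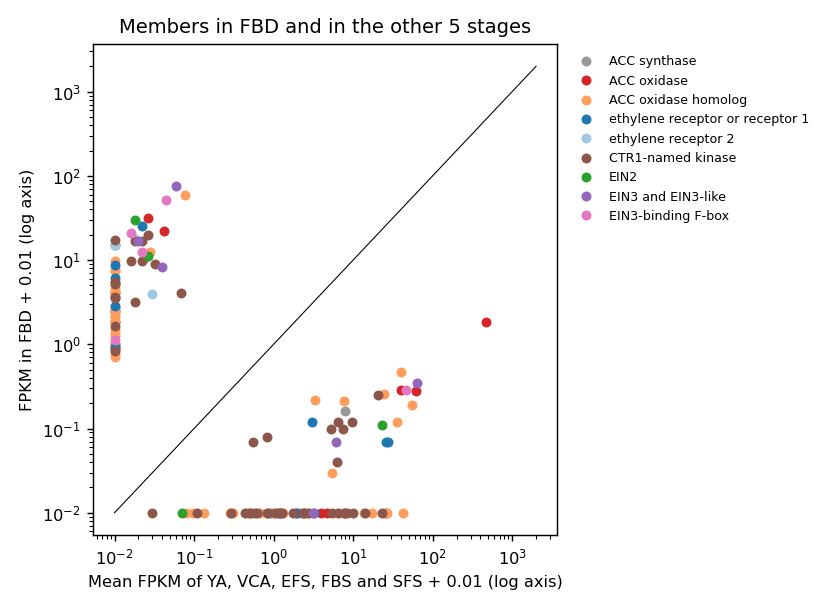
FPKM in FBD against the mean FPKM of the other 5 stages for the 148 members, both with 0.01 added and on log axes, colored by class, with the line of equal values. The members lie in 2 clouds away from the line, 60 on the FBD side and 57 on the other.

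EIN3 had the highest member in FBD, with Unigene114364 at 75.5 in FBD and at most 0.13 later. The EBF1 unigene Unigene125882 had 51.1 in FBD, the EIN2 unigene Unigene117228 had 30.0, and the receptor CL903.Contig2 had 25.7. Class sums in FBD were 101 for EIN3, 85.8 for EBF, 41.3 for EIN2 and 59.5 for ethylene receptor and receptor 1. The EBF sum held 12.55 from CL23316.Contig1, which had another orthology and an E-value of 5.2e-18.

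Unigenes named ethylene receptor 2 reached an FPKM of 1 in FBD alone, where Unigene120609 had 18.0, CL5267.Contig1 had 15.2 and Unigene112042 had 3.92. This depends on the name a contig was given. CL5267.Contig3, of the same cluster but named EIN4, had 15.5 in YA, 26.7 in FBS and 14.5 in SFS. Unigene112042 had the same best Arabidopsis match in KOG as Unigene1217, named ethylene receptor 1. ACC synthase was low in FBD as well, with Unigene136430 highest at 2.60. For ACC oxidase the FBD sum of 64.1, led by Unigene159457 at 31.9, was below each of the other 5 stages. Among the homologs CL22964.Contig1 reached 59.9, and among the CTR1 names CL19783.Contig5 reached 19.7. In 6 of the 27 clusters, contigs of FBD and contigs of the later stages stood side by side.

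The neighbours of these genes in the pathway were followed by lists of names. S-adenosylmethionine synthase, which makes the precursor of ACC, summed over 14 unigenes to 1018 in YA and 794 in VCA, then 1232, 963 and 425 in EFS, FBS and SFS. It was lowest in the senescing flower, where ACC oxidase was near its highest, but scaling by actin made VCA (674) lower than SFS (706). Of 5 that passed the filter, 1 was at least 2-fold higher in SFS than in YA and 3 were lower, too few to set beside the shares of all named unigenes. The leading unigene, CL3744.Contig3, had 561 (YA) and 380.2 (VCA) in bud and 694 (EFS), 706 (FBS) and 230.3 (SFS) after opening.

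Few unigenes of the smaller lists passed the filter from YA to SFS, where 25.2% of all named unigenes were higher and 41.7% lower. The Yang cycle recycles the methylthio group left when ACC is formed, and 2 of 12 of its unigenes (16.7%) were higher in SFS and 6 (50.0%) lower. ETO1 and ETO1-like proteins, which mark ACC synthase for degradation, had 2 of 5 higher and 1 lower. RTE1, a partner of the receptor ETR1 in Arabidopsis, and its homologs had 0 of 8 higher and 4 lower. RAN1, the copper transporter that loads the receptors, had 1 of 2 higher and 0 lower. Exoribonuclease 4, which in Arabidopsis lowers EBF transcripts, had 1 of 7 (14.3%) higher and 3 (42.9%) lower. These were too few to set beside the shares of all named unigenes.

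The ethylene-responsive transcription factors, a large family of which only some members respond to ethylene, peaked with full bloom. Of 55 that passed the filter from EFS to FBS, 34 (61.8%) were at least 2-fold higher and 7 (12.7%) lower, with a median log2 ratio of 1.74, against 24.7% and 28.0% of all named unigenes. From FBS to SFS 4 of 55 (7.27%) were higher and 27 (49.1%) lower, with a median of -0.99, against 23.5% and 27.7%. Over the whole span from YA to SFS 16 of 50 (32.0%) were higher and 18 (36.0%) lower, against 25.2% and 41.7%.

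Senescence names had a higher sum late. Their 16 unigenes summed to 93.3 in YA, 64.4 in VCA, 105 in EFS and 156 in FBS, with 247 in SFS. Of 6 that passed the filter, 4 (66.7%) were higher in SFS and 1 (16.7%) lower, against 25.2% and 41.7% of all named unigenes. CL20176.Contig1, Contig2 and Contig3, named STAY-GREEN LIKE, were among the 6 and share a cluster. Contig1 and Contig2 of it were among the 4 called higher. Pheophorbide a oxygenase, an enzyme of chlorophyll breakdown, led the senescence names, and its Unigene24353 made 65.5% of their sum in SFS. Unigene24353 had 47.9 in YA and 21.5 in VCA, then 56.4, 90.1 and 162 in EFS, FBS and SFS, an order of stages like that of CL25351.Contig3. Unigenes named senescence-associated carboxylesterase 101 went opposite ways, CL20346.Contig1 from 0.97 in YA to 9.18 in SFS and Unigene14178 from 6.37 to 0.84. No unigene was named SAG12 or SAG39.

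Markers of floral parts also moved over these stages. Floral organ identity names summed to 369 (YA) and 322 (VCA) in bud and 217 (EFS), 158 (FBS) and 172 (SFS) after opening, and 20 of 31 reached an FPKM of 1 in some later stage. Pollen and anther names, 87 of 136 of which reached 1, summed to 2074 in YA, 2254 in VCA, 4368 in EFS and 3291 in FBS, with 2726 in SFS. Chlorophyll a-b binding names, 41 of 80, ranged from 2997 in FBS to 10753 in SFS. None of the 3 lists was at 0 in any stage. Their part in the differences of the ethylene genes was not tested.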

How the data were processed

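Floral RNA of 6 stages was measured by RNA-seq, with 1 library per stage. The authors assembled the reads with Trinity without a reference genome, clustered contigs into unigenes, annotated them by Swiss-Prot, KEGG and KOG, and deposited FPKM per unigene, calculated with RSEM and given to 2 decimals. Which versions and trimming were used, and the read counts, are not given in the sources, so the depth behind a value is unknown. Estimated reads are divided over similar contigs, which affects single contigs more than sums. Of the table, 2 lines were empty and 0 columns were left without a sample.

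Members were matched by Swiss-Prot name and put into 9 classes. Members and lists were chosen with earlier results of these data known. Ratios were log2(FPKM + 0.1), over unigenes reaching an FPKM of 1 in the earlier or later stage, called at 2-fold (a log2 ratio of 1) and set beside all Swiss-Prot-named unigenes. A ratio understates the change of low unigenes, and a value listed at 0 gave no fold. Named unigenes were, in each class, the 3 with the highest mean over the 5 later stages among those reaching 5, the 1 with the largest ratio of SFS to YA, and the highest in FBD; all others were chosen after their values were seen. The counting code was checked on a copy of the YA values in which known changes had been set. That check covers the code and not the reliability of calls from single libraries. Python 3.11.15, numpy 2.4.6, pandas 2.3.3 and matplotlib 3.10.9 were used. Alternatives were pseudocounts of 1 and 0.01, no filter or a filter of 5, 3 scalings, sums over clusters and other memberships.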

Additional observations from a re-analysis of the deposited data

How the results depend on the processing

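With 1 library per stage, leaving out a replicate was not possible. No paired analysis was possible because each stage has 1 library. Depth is unknown, so low FPKM carry an error that cannot be given. From YA to SFS, the members' median log2 ratio went from 0.98 to 0.024 without the ACC oxidase homologs, to -0.21 with members taken by KEGG orthology (122 unigenes, of which the 69 shared are 56.6%, and 46.6% of the 148 members) and to 0 with no filter on low FPKM. Among those that passed, 17 of 46 were higher and 13 lower without homologs, and 16 of 58 were higher and 21 lower by orthology. Summing over clusters gave 19 higher and 7 lower of 41 that passed. An FPKM filter of 5 gave 6 of 39 lower, and actin scaling gave 8 of 63 lower and a median of 1.99. The named unigenes were not counted with cluster sums, other filters or other pseudocounts. Counts under those settings, here and below, therefore have no background share.

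From YA to VCA, the filter of 5 gave 5 higher and 7 lower of 32. Cluster sums gave 4 and 7 of 37, and 9 of 43 were lower without homologs. From VCA to EFS, 20 of 148 were lower with no filter, the filter of 5 gave 15 higher and 5 lower of 33, and cluster sums 13 and 7 of 37. The medians were -0.11 without homologs (12 of 39 higher) and -0.14 by orthology (13 of 46 higher). From EFS to FBS, the filter of 5 gave 2 of 38 lower, and actin scaling 7 of 62 lower and a median of 1.21. Cluster sums gave 15 higher and 4 lower of 40, and 6 of 42 were lower without homologs. From FBS to SFS, a pseudocount of 1 gave 11 of 64 lower, and the filter of 5 gave 8 higher and 9 lower of 40. Actin scaling gave 9 of 68 lower and a median of 0.24. Cluster sums gave 10 and 9 of 44, and without homologs 8 were higher and 11 lower of 43.

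Among the alternatives added after seeing the data, 1 kept CTR1 names only with the CTR1 orthology. It gave 11 of 52 lower from YA to SFS, 9 of 45 higher from YA to VCA and 7 of 44 lower from VCA to EFS. Cluster sums with an FPKM of at least 5 gave, higher and lower, 14 and 2 of 26 from YA to SFS. They gave 1 and 3 of 22 from YA to VCA and 11 and 2 of 25 from VCA to EFS. From EFS to FBS they gave 10 and 1 of 26, and from FBS to SFS 6 and 4 of 28. Among class sums from YA to SFS, actin scaling put ACC synthase (1.11), CTR1 names (1.04), EIN3 and EIN3-like (1.87) and EBF (1.03) past a log2 ratio of 1, and the median ratio did so for EIN3 and EIN3-like (1.37). Members taken by KEGG orthology put the EIN3 and EIN3-like sum lower, at 0.42. The ACC oxidase and ACC oxidase homolog sums stayed past 2-fold higher under each alternative run for them. The ethylene receptor 2 sum was under 1 in both libraries and gave no ratio, and KEGG orthology separates neither the receptors nor the homologs, so no sum of these was made by it.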
